A study of Mus musculus with 8 samples.

Results

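Irak3 and 9 genes that act with it in Toll-like receptor and interleukin-1 receptor signalling were described in the medial prefrontal cortex (mPFC) of adult mice. The 10 genes were found by their symbol among the non-control spots of the array, which carried 19 probes for them among 55681 probes with 34797 distinct gene names. Of the 19 probes, 15 entered the comparison, which held 34097 probes that the scanning software called well above background in all 4 mice of one group or both. These 15 covered 9 of the 10 genes. Irak3 was selected on the measured contrast itself, since its probe had the smallest unadjusted p of the whole array in an earlier look at these data, so its difference between the groups is given as a description and without a test. The other 9 genes were chosen for their place in the pathway, also with those results known.

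All mice were male C3H/HeN, an inbred strain with a working Tlr4 gene, in contrast to the related C3H/HeJ strain. Mice of the MS group (labelled Stress) had been separated from their dam every day from postnatal day 2 to 14, while the dam underwent unpredictable stress, and control mice (labelled Ctrl) had not. Both groups were weaned on postnatal day 21, and the mice had been through a food-motivation task and a fast before the brains were taken. Each group held 4 mice, with 1 single-colour array per mouse made from 200 ng of total RNA and no pooling. The labels name each mouse by a number such as 6.2. The part before the point, whose meaning they do not give, never occurred in both groups. Controls 8.2, 8.4 and 8.5 had that part in common, and so had MS mice 7.1, 7.2 and 7.6 among themselves. The SDs and intervals below treat the 4 mice of a group as independent.

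Toll-like receptors sense molecules of microbes and of damaged cells, and the interleukin-1 receptors share their intracellular TIR domain. An engaged receptor recruits the adaptor Myd88, which assembles the kinases Irak4, Irak1 and Irak2 and hands the signal to the ubiquitin ligase Traf6, from which NF-kB and MAP kinases are activated. Irak3, also called IRAK-M, lacks effective kinase activity and restrains this chain, and it is best known from monocytes and macrophages. In the brain the receptors of this pathway are mostly found on microglia, with some on astrocytes, endothelium and neurons.

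The results turn on a few probes, and the first 30 of the 60 bases of each are shown as the array files list them. Irak3 is shown because the account centres on it, and Traf6 and Il1rap as examples of genes whose probes disagreed in direction, as those of Irak1 also did. Capitals mark stretches of 15 or more bases that also occur, on either strand, in array probes of other genes. A stretch that reaches the end of the print can run on past base 30, as in the second Traf6 probe.
Irak3 probe A_52_P386627: ttaccaccggcacttaatgctagtctttct
Traf6 probe A_55_P1998380: ttcccctgtccggggaaggaaatcgcctgc
Traf6 probe A_52_P510215: ttaactatcgaggtgattcTTACTTAAGAC
Il1rap probe A_55_P2041432: ccattttctttaaCCAGCTCTTCCTTGATc
Il1rap probe A_52_P467232: gatgttgtcaacgcCTTTGTTTCTAAATGT
The Irak3 probe, which is the only one for this gene, shared no such word with a probe of another gene. By the mm9 positions in the array files, the Irak3 probe lay on chr10:119578999-119579058 on the minus strand, and the printed Traf6 probes lay on the plus strand at chr2:101519206-101519265 and chr2:101540660-101540719. The Il1rap probes were at chr16:26725291-26725350 and chr16:26701498-26701557, also on the plus strand. An exon annotation of that build was not used here, so the part of the transcript each probe reads is not given. The array files list the Traf6 probes under different transcript records, and the Il1rap probes likewise. Whether the probes of a gene read the same transcripts was not tested.

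The arrays differed in brightness, with overlap between the groups. The 75th percentile of the processed signal ran from 588 intensity units in MS 7.1 to 892 in control 8.4. Between 61.6% and 68.9% of the probes were well above background, and 0 spots were saturated. Markers of cortical excitatory neurons were all measured above background, 8 of 8, and all 8 were higher in MS, with a median difference of 0.19. Of the other regional markers, 0 of 9 for striatal projection neurons (median -0.32), 0 of 8 for the olfactory bulb (median -0.82) and 1 of 10 for meninges and mural cells (median -0.15) were higher in MS. None of these passed the adjusted threshold of limma, and their part in the differences below was not tested. Control 8.4 stood apart from the rest, with a median correlation of 0.987 with the other arrays against at least 0.993 for each of those. Its mean score for striatal projection neuron markers was 1.40, against -0.36 to -0.08 on the other 7 arrays. Its cortical excitatory neuron score was -0.54, against -0.05 to 0.20 on those arrays. Olfactory bulb markers scored 2.71 in it, 1.46 in MS 7.6 and 0.89 in control 8.5, against -1.17 to -0.73 elsewhere. Scores are mean log2 differences from the average of the 8 arrays. The cortical, striatal and bulb scores overlapped between the groups. The marker counts and medians above include control 8.4 and were not computed without it, so they are not read as group differences. Below, the extremes of each gene's difference with 1 mouse left out are given with the mouse that was left out.

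Levels below are log2 of the background-corrected signal minus the log2 75th percentile of the same array, so 0 is the level of a fairly bright probe. They compare animals for 1 probe and say nothing of one probe against another. Across the 34097 probes, 0 passed an adjusted p of 0.05 by limma, which is 0% of them, and the smallest adjusted p was 0.9996. An unadjusted p under 0.05 was given to 815 probes, or 2.39%.

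Irak3 was lower in every MS mouse than in every control mouse. Its levels in control mice 6.2, 8.5, 8.2 and 8.4 were -3.68, -3.58, -3.64 and -3.62, and in MS mice 5.3, 7.1, 7.2 and 7.6 they were -4.26, -4.03, -4.09 and -4.17. The highest MS mouse thus stayed below the lowest control mouse. The group means were -3.63 ± 0.04 (SD, n = 4) in controls and -4.14 ± 0.10 (SD, n = 4) in MS, a difference of -0.51, or a ratio of 0.704. The difference was -0.51 among the 4 arrays of the first row of the slide and -0.50 among the 4 of the second. Both rows are part of the contrast that selected Irak3 and both had to be negative without overlap, so their likeness is not independent support. Irak3 was 1 of 196 probes, 0.575% of those tested, on which all MS mice lay below all controls, and the same contrast chose it.

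The spread of Irak3 within the groups was narrow for its level, and it entered the p on which the gene was selected. The within-group SD was 0.07, where the median of the 2081 tested probes within 0.25 log2 units of its mean level was 0.25. Only 7 of those 2081 probes had a smaller spread. The median over all tested probes was 0.17. The scanning software gave each Irak3 spot its own error of 10.7% to 14.0% of the signal, and the probe had 1 spot per array.

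The Irak3 spots were dim. Before scaling, the background-corrected signals were 58.1, 56.3, 65.2 and 72.7 units in control mice 6.2, 8.5, 8.2 and 8.4, and 39.2, 36.0, 47.3 and 39.4 units in MS mice 5.3, 7.1, 7.2 and 7.6. These values did not overlap between the groups either, but they also carry the brightness of each array, which was lowest for MS 7.1 and highest for control 8.4. The mean signal of the whole spot was 65.8 to 109 units over a local background of 25 to 30 units, and all 8 spots were called well above background.

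**Figure D1:**
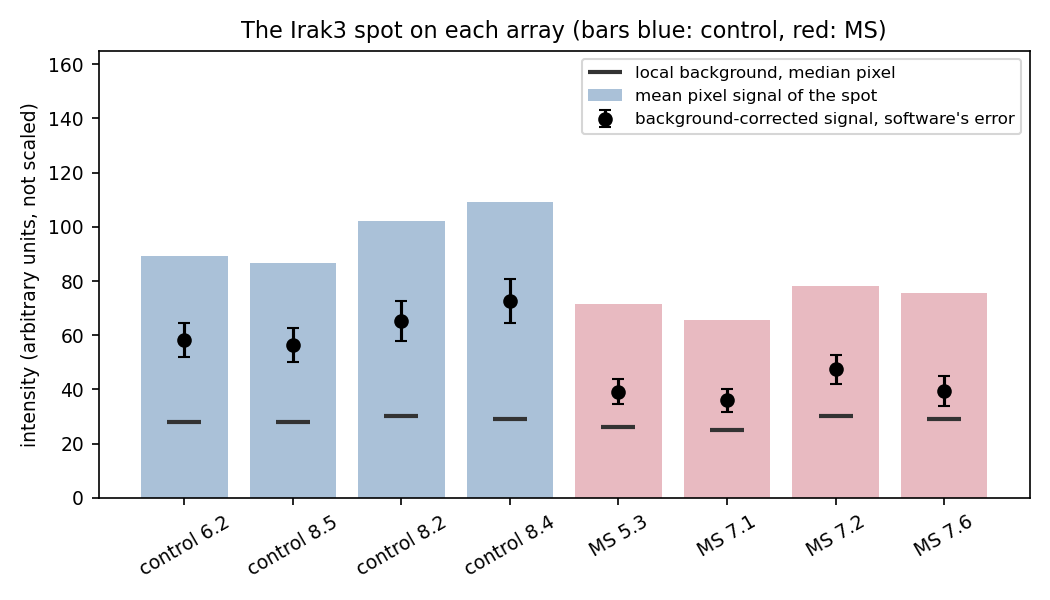
The Irak3 spot on each of the 8 arrays in intensity units before scaling. Bars are the mean pixel signal (blue for control, red for MS), points the background-corrected signal with the error given by the scanning software, and dashes the local background. The 4 control points lie between 56.3 and 72.7 and the 4 MS points between 36.0 and 47.3.

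The size of the Irak3 difference depended on the processing, while the order of the groups did not. In the authors' log2 table the difference was -0.28, with controls at 6.465 to 6.525 and MS mice at 6.18 to 6.24. It was -0.20 after normexp correction with quantile normalisation and -0.27 with the median spot signal and no subtraction. On each of these scales every MS mouse was below every control mouse, though the share of all probes without overlap is not given for them. Normexp was run with an offset of 50 units, beside background-corrected Irak3 signals of 36.0 to 72.7. The median spot signal kept the local background. Either addition makes the log2 difference of a dim spot smaller. With 1 mouse left out the difference lay between -0.54 (without MS 7.1) and -0.47 (without MS 5.3). Its sign could not change there, because the groups do not overlap on the arrays that selected Irak3.

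**Figure D2:**
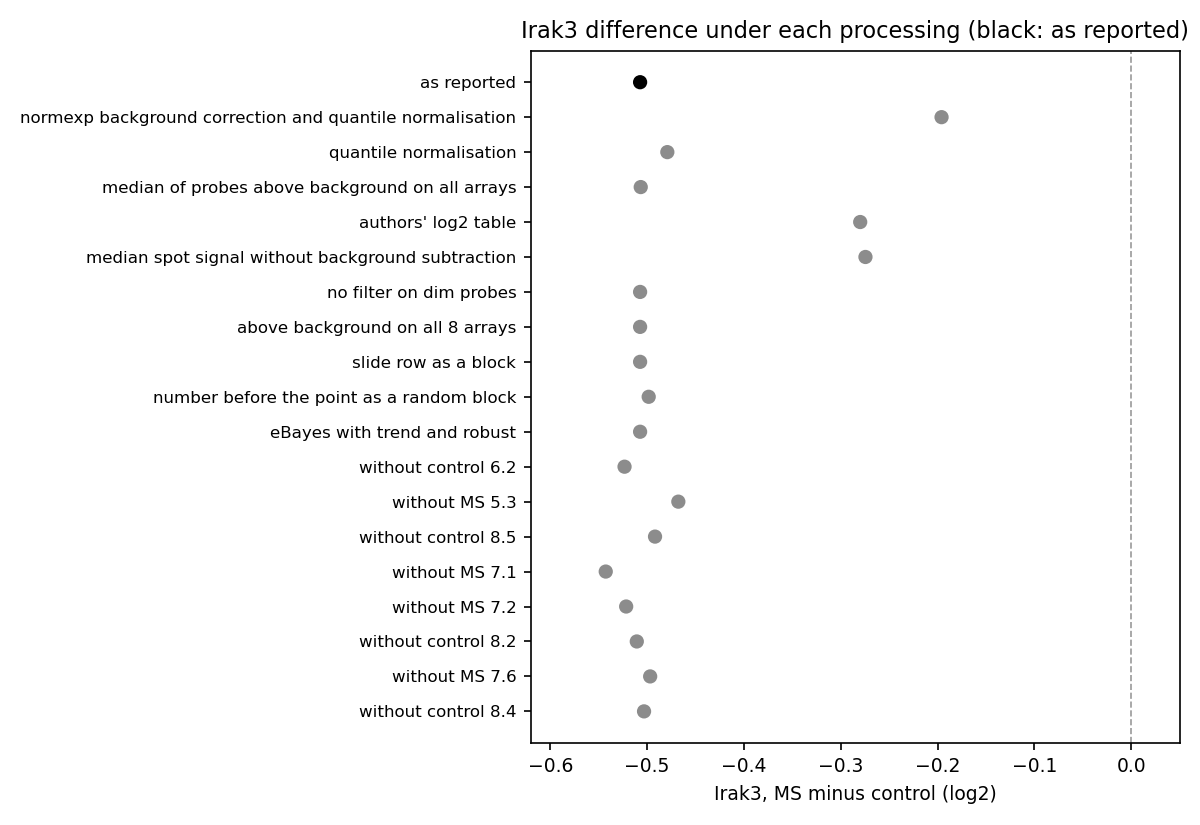
The Irak3 difference, MS minus control in log2 units, as reported (black) and under the 18 alternatives (grey), with a dashed line at 0. The points range from -0.54 to -0.20, and the 3 nearest to 0 are those from normexp correction, the median spot signal and the authors' log2 table. All points come from the arrays on which Irak3 was selected, and leaving out 1 mouse could not change the sign.

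The kinases that carry the signal overlapped between the groups on every probe on the main scale. Irak1, which is phosphorylated by Irak4 and then binds Traf6, had its brightest probe at 1.54, 1.43, 1.59 and 1.86 in control mice 6.2, 8.5, 8.2 and 8.4 and at 1.53, 1.44, 1.53 and 1.50 in MS mice 5.3, 7.1, 7.2 and 7.6. Control 8.4 was the high value and the other 7 mice lay close together. The difference was -0.10 (95% interval -0.33 to 0.12), with -0.02 without control 8.4 and -0.16 without control 8.5. The 2 other Irak1 probes gave differences of 0.02 (-0.15 to 0.20) and 0.14 (-0.09 to 0.37), so the probes of this gene did not share a sign.

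Irak2, a kinase that sustains the signal after Irak1, gave 0.08 (95% interval -0.11 to 0.27) on the brighter probe. Levels there were 2.21 to 2.42 in controls and 2.33 to 2.53 in MS mice, and the difference was 0.04 without control 8.4 and 0.11 without MS 7.2. The second probe gave 0.11 (-0.12 to 0.34), with -3.52 to -3.31 in controls and -3.47 to -3.08 in MS mice. Its groups overlapped on this scale but did not in the authors' log2 table, where the difference was 0.15 and all MS mice were above all controls. The share of all probes without overlap is not given for that table, so this is not read as a result. Irak4, the first kinase of the chain, had 2 probes, and neither was well above background on any of the 8 arrays, so no level or difference is given.

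Myd88, the adaptor shared by most Toll-like receptors and the interleukin-1 receptors, was measured by 10 spots per array. Its levels were -1.38, -1.51, -1.34 and -1.46 in control mice 6.2, 8.5, 8.2 and 8.4 and -1.41, -1.49, -1.40 and -1.16 in MS mice 5.3, 7.1, 7.2 and 7.6. MS 7.6 was the high value and the rest overlapped. The difference was 0.06 (95% interval -0.15 to 0.27), with -0.01 without MS 7.6 and 0.10 without MS 7.1. The SD between the 10 spots of an array was 0.07 and that between animals of a group was 0.11. The medians over the 303 tested probes with 10 spots were 0.07 and 0.13. Spots of Tlr2 and Tlr4, which had lower signals, differed by 0.12 and 0.31 within an array. The Myd88 value is therefore no guide to the precision of a dim single spot such as that of Irak3.

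Tlr2, a receptor for bacterial lipoproteins, also had 10 spots per array. Its levels were -3.39, -3.25, -3.45 and -2.96 in control mice 6.2, 8.5, 8.2 and 8.4 and -3.46, -2.87, -3.24 and -3.17 in MS mice 5.3, 7.1, 7.2 and 7.6. Control 8.4 and MS 7.1 were high and the groups covered nearly the same range. The difference was 0.07 (95% interval -0.27 to 0.42), with -0.03 without MS 7.1 and 0.18 without control 8.4. Spots differed by an SD of 0.12 within an array and animals by 0.23 within a group.

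Tlr3, a receptor for double-stranded RNA that signals without Myd88, had levels of -4.19, -5.65, -4.80 and -4.75 in control mice 6.2, 8.5, 8.2 and 8.4 and of -4.69, -4.46, -4.56 and -4.81 in MS mice 5.3, 7.1, 7.2 and 7.6. Control mice held both the highest and the lowest value. The difference was 0.22 with a wide interval (95% -0.38 to 0.82), and it was -0.05 without control 8.5 and 0.44 without control 6.2. Stretches of 15 or more bases covering 41 of the 60 bases of the Tlr3 probe also occur in 3 array probes of other genes. The part of these stretches in the Tlr3 values was not tested.

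Tlr4, the receptor for bacterial lipopolysaccharide, stood at -4.23, -3.58, -3.93 and -3.44 in control mice 6.2, 8.5, 8.2 and 8.4 and at -3.97, -3.995, -4.23 and -3.93 in MS mice 5.3, 7.1, 7.2 and 7.6. Controls 8.4 and 8.5 were the highest, and the other mice of both groups overlapped. The difference was -0.24 (95% interval -0.63 to 0.15), with -0.12 without control 8.4 and -0.38 without control 6.2. Both high controls had high olfactory bulb scores, as had MS 7.6, whose Tlr4 level was -3.93. Tlr4 correlated with that score at r = 0.81 over the 8 arrays (Spearman 0.60), a description in which both measures come from the same arrays. It was not the largest r between a member and a marker score. Irak1 had 0.87 with the striatal score (Spearman 0.10) and Il1rap 0.86 with the cortical neuron score (Spearman 0.43). The part of the bulb score in the Tlr4 difference was not tested. The 2 spots of the Tlr4 probe differed by an SD of 0.31 within an array, more than the 0.27 between animals. In control 8.5 they read -4.04 and -3.11, so its high level rested on 1 spot. In control 8.4 they read -3.49 and -3.38. A second Tlr4 probe was not above background on any array.

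Il1rap, the accessory chain without which the interleukin-1 receptor does not signal, had 3 probes. The brightest read -0.42, -0.53, -0.73 and -1.10 in control mice 6.2, 8.5, 8.2 and 8.4 and -0.48, -0.37, -0.46 and -0.70 in MS mice 5.3, 7.1, 7.2 and 7.6. Control 8.4 was the lowest of the 8. The difference was 0.19 (95% interval -0.15 to 0.54), with 0.06 without control 8.4 and 0.29 without control 6.2. The second probe gave -0.08 (-0.49 to 0.32), and the third was above background on 1 array.

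Traf6, the ubiquitin ligase below the Irak kinases, was the member whose probes disagreed most. The brightest probe read -0.15, -0.11, -0.29 and -0.22 in control mice 6.2, 8.5, 8.2 and 8.4 and -0.23, -0.44, -0.38 and -0.29 in MS mice 5.3, 7.1, 7.2 and 7.6, a difference of -0.14 (95% interval -0.32 to 0.04). It was -0.10 without MS 7.1 and -0.18 without MS 5.3. The groups overlapped through MS 5.3 and control 8.2. In the authors' log2 table and in the median spot signal the same probe did not overlap, with MS below control by 0.16 and 0.15 on the log2 scale. For those scales the share of all probes without overlap is not given.

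A second Traf6 probe went the other way. It read -2.17, -2.42, -2.44 and -2.29 in control mice 6.2, 8.5, 8.2 and 8.4 and -2.08, -2.30, -2.06 and -1.94 in MS mice 5.3, 7.1, 7.2 and 7.6, a difference of 0.24 (95% interval 0.001 to 0.469, not adjusted for the number of probes). Most MS mice were above the controls, with MS 7.2, 7.6 and 5.3 above all 4. The third probe gave -0.08 (-0.44 to 0.29). The mean of the 3 probes differed by 0.01, so no direction is given for Traf6.

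**Figure D3:**
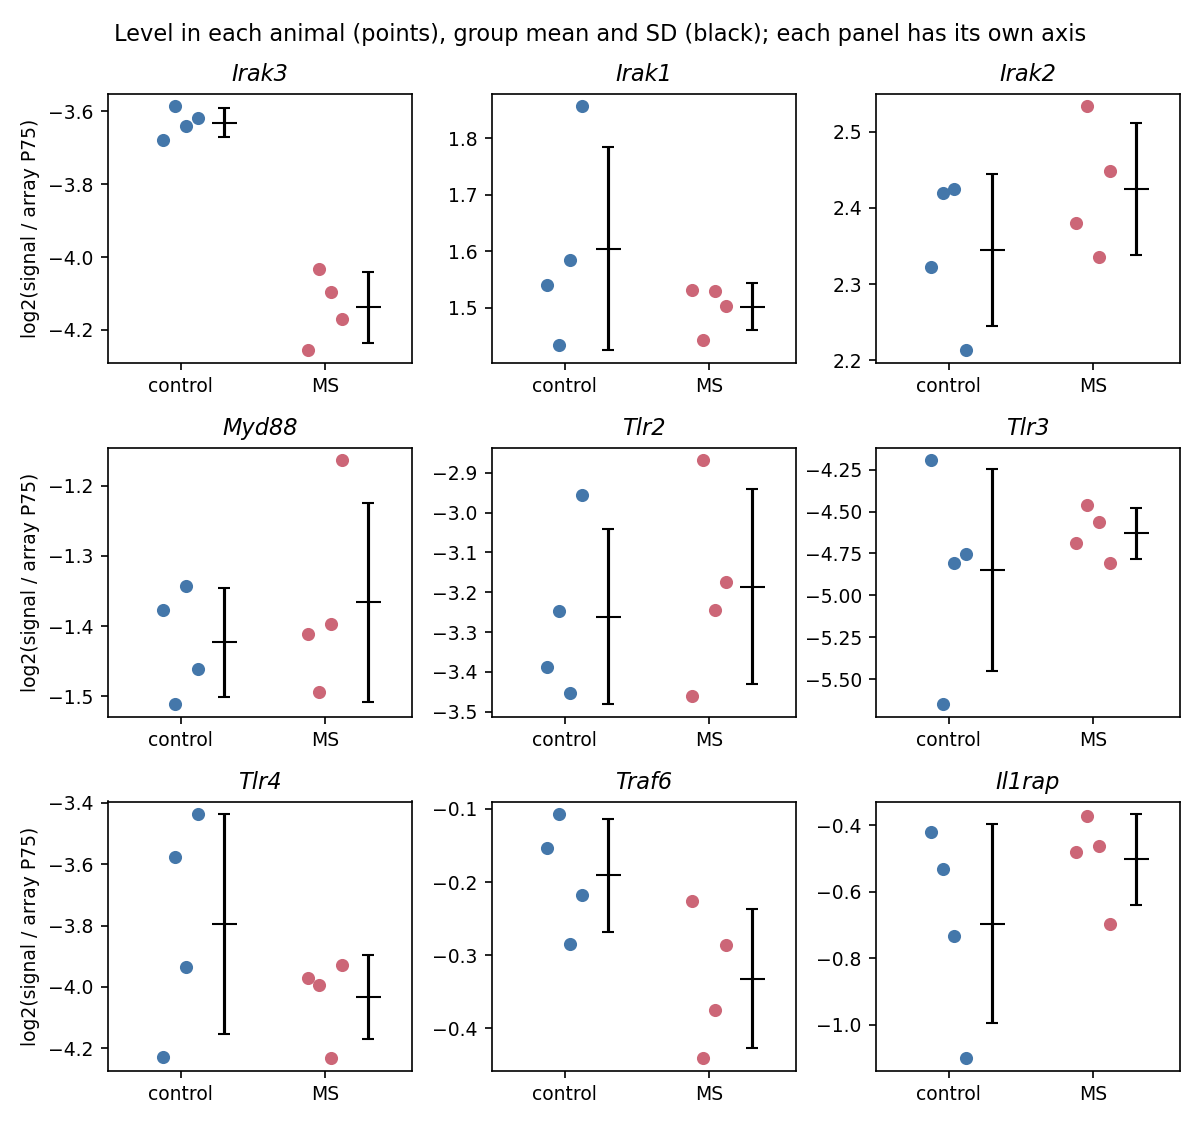
Level of the brightest tested probe of 9 genes in each mouse, as log2 of the signal over the 75th percentile of its array, with the group mean and SD (n = 4) in black and a separate axis for each gene. Irak3 is the gene whose groups do not overlap, and control 8.4 is the high point for Irak1 and Tlr4 and the low point for Il1rap.

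Beside Irak3, the groups overlapped on every other tested probe of the 10 genes, on a background of 1.43% of all tested probes without overlap in either direction, made up of 0.575% with MS below and 0.851% with MS above. The differences of these other probes on the main scale ran from -0.24 for Tlr4 to 0.24 for the second Traf6 probe. Except for 1 Irak1 probe (-0.15 to 0.20), each of their intervals held differences of over 0.2 log2 units on at least 1 side, so a change of that size is not excluded by these 4 mice a group.

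**Figure D4:**
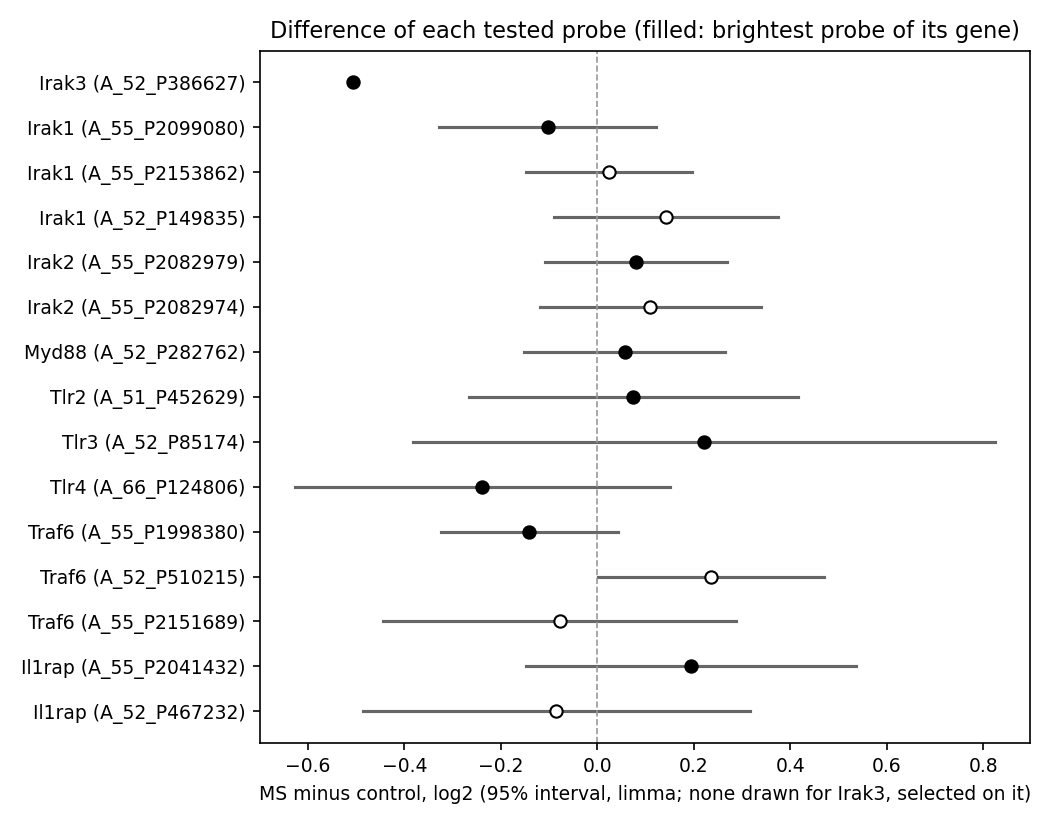
Difference between MS and control in log2 units for the 15 tested probes, with the 95% interval from limma, filled for the brightest probe of each gene. No interval is drawn for Irak3, at -0.51, because it was selected on this contrast. The interval of the second Traf6 probe runs from 0.001 to 0.469, and the others cross 0.

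The rest of the pathway was followed in 92 further genes in 8 lists, of which 66 had a tested probe. None of the 66 passed the adjusted threshold of limma and none separated the groups, against 0% and 1.43% of all probes, and all 66 intervals crossed 0. The median difference was 0.04 with 41 genes higher and 25 lower in MS, and over all tested probes it was 0.01. Genes are named below as the highest and lowest of each list and their values are not calls.

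Among the other Toll-like receptors, 5 of 9 were tested, with a median of 0.08. They ran from -0.13 for Tlr6, a partner of Tlr2, to 0.21 for Tlr7, a receptor for single-stranded RNA. Of the co-receptors and chaperones 7 of 8 were tested, with a median of -0.02 and a range from -0.63 for Lbp, the lipopolysaccharide binding protein, to 0.16 for Ly86. The Lbp interval was -2.36 to 1.09, the widest in the list. Of the TIR adaptors and receptor-level inhibitors 5 of 6 were tested, with a median of 0.08, from -0.05 for the inhibitory receptor Sigirr to 0.38 for the adaptor Sarm1.

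For interleukin-1 family ligands and receptors, 7 of 13 were tested, with a median of -0.04, which was 0.02 without control 8.4. The lowest was Il1rl1, the interleukin-33 receptor, at -0.28, and the highest the decoy receptor Il1r2 at 0.12. The ligands Il1a and Il1b and the antagonist Il1rn were among the genes without a tested probe. Of the kinases and ubiquitin enzymes below the Irak kinases, 16 of 17 were tested and had a median of 0.03, from -0.43 for the ubiquitin ligase Peli2 to 0.13 for Chuk, a subunit of the IkB kinase.

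Genes that switch the pathway off or carry its output made up the other 3 lists. Feedback inhibitors had 12 of 13 genes tested and a median of 0.04, from -0.07 for Socs3 to 0.32 for Tnfaip3, the ubiquitin-editing enzyme A20. NF-kB and interferon regulatory factors had 8 of 9 tested and a median of 0.02, from -0.13 for Jun to 0.39 for Irf7. Inflammatory targets had 6 of 17 tested and a median of 0.10, from -0.42 for the chemokine Ccl5 to 0.16 for Nos2, the inducible nitric oxide synthase. That median was -0.02 without MS 7.1. Tnf, Il6, Il12b and Ifnb1 were not well above background on any array.

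**Figure D5:**
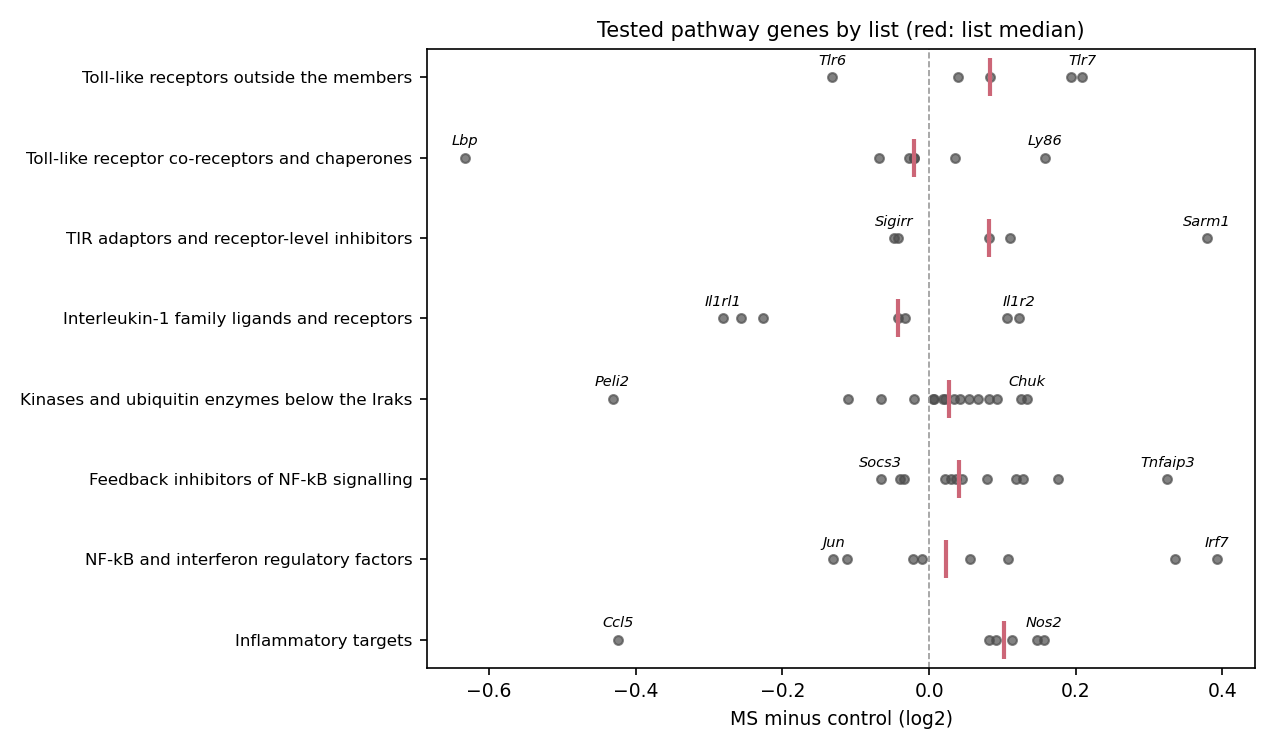
Difference between MS and control in log2 units for the 66 tested pathway genes outside the 10 members, by list, with the list median in red and the lowest and highest gene of each list named. List medians lie between -0.04 and 0.10, and 0 of the genes passed the adjusted threshold.

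In whole tissue, fewer cells of a type and less RNA per cell cannot be told apart. All 12 microglia markers were tested, 10 were higher in MS with a median difference of 0.05, and the microglia score ranged from -0.06 to 0.04 in controls and from -0.04 to 0.04 in MS mice. Irak3 correlated with that score at r = -0.33 over the 8 arrays, and at r = 0.39 after the group means were taken away. The first value includes the group difference on which Irak3 was selected. Of 10 markers of blood monocytes and neutrophils 4 were tested, and all 4 were higher in MS, with a median difference of 0.61 and 0 past the adjusted threshold of limma, while Ngp, Ltf, Ly6c2, Ccr2, Cd177 and Mmp8 were not tested. Their score ranged from -1.53 to 1.38 in controls and from -1.75 to 2.23 in MS mice, so it overlapped between the groups. Over the 8 arrays Irak3 correlated with it at r = -0.02, and at r = 0.80 after the group means were taken away. The latter was the largest of the marker lists, with -0.23 to 0.39 for the others, and the score rests on 4 genes. It describes a within-group SD of 0.07 in Irak3, read from 1 spot per array with a software error of 10.7% to 14.0%. The part of the monocyte and neutrophil score in the Irak3 values was not tested.

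The genes with a profile most like that of Irak3, by Pearson r over the 8 arrays, were B230307C23Rik (0.95), Efna1 (0.93), Gm2897 (0.91), Ttc22 (0.90) and A230056J06Rik (0.89). All 5 were lower in every MS mouse than in every control, which fixes much of such a correlation. After the group means were taken away, r was between 0.38 and 0.62. None of the 5 belongs to the pathway lists used here.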

How the data were processed

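Single-colour Agilent arrays of 8 mPFC samples, 4 per group by the labels, were used. The deposited scanner files, made with Feature Extraction 10.10.1.1, hold spot intensity values that the software had background-corrected. The authors also deposited a table of log2 values for 34137 probes, whose centring and scale are not stated. It was used as an alternative. Control spots and outlier spots were left out, processed intensity was divided by the 75th percentile of each array, log2 was taken and the spots of a probe were averaged. Probes well above background on all 4 arrays of a group were compared with limma 3.58.1 (R 4.3.3; lmFit, eBayes, Benjamini-Hochberg adjustment), after a test on simulated data. The brightest tested probe stood for a gene. Symbols were updated through RefSeq (GRCm38.p6) by accession for 27235 probes and by name for 4146, and kept for 24300. Members, gene lists and markers were chosen with earlier results of these data known. Named were all members, the highest and lowest gene of each list, and the 5 genes closest to Irak3 in profile. All arrays were on 1 slide, with 2 of each group in each row. Their number limits the precision, and the sources do not say whether mice of a group were littermates. Irak2 probe sequences are not reported here.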

Additional observations from a re-analysis of the deposited data

Results flagged for a closer look

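Among 162 groups of 4 values examined, for the members and the tested pathway genes, 7 held a value far from the other 3 by Dixon's criterion, which chance gives in about 1 of 20 groups. None was a value of one of the 10 members. In control 8.4, the array with the high striatal and olfactory bulb scores, Casp1 stood at 0.18 (other controls -1.05 to -0.93), Nfkb1 at -3.37 (-2.85 to -2.77), Tlr6 at -3.30 (-3.51 to -3.48) and Ube2v1 at 5.63 (5.80 to 5.81). In MS 7.1, Map3k7 stood at 0.91 (other MS mice 1.03 to 1.06) and Tbk1 at 0.82 (1.002 to 1.029). In MS 5.3, Nos2 stood at -2.63 (-2.43 to -2.40).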

How the results depend on the processing

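Irak3 was lower in MS under all 18 alternatives, but all of them use the arrays on which it was selected. Its groups do not overlap, so leaving out 1 animal could not change the sign. A different probe filter, the slide row as a block or eBayes with trend cannot move the difference from -0.51. The Irak3 difference was -0.20 after normexp correction with quantile normalisation, -0.28 in the authors' log2 table and -0.27 with the median spot signal without subtraction, against -0.51 as reported, and -0.54 to -0.47 with 1 animal left out. Its rank by p ran from 1 to 17. The offset of 50 units in normexp and the background kept in the median spot signal make the log2 difference of a dim spot smaller. No probe passed the adjusted threshold under any of these settings, with unadjusted counts of 540 to 1537 apart from 3838 with the number before the point as a random block, whose estimated correlation was -0.22 and whose smallest adjusted p by limma was 0.393. The count of pathway genes passing was 0 throughout. Signs changed for Irak1 (0.02) and Traf6 (0.01) with all probes averaged, for Myd88 without MS 7.6, Tlr2 without MS 7.1 and Tlr3 without control 8.5. List medians near 0 also changed sign, for the co-receptors without MS 5.3 or control 8.2, the interleukin-1 family without control 8.4, the inflammatory targets without MS 7.1 and the NF-kB factors after normexp. The causes were not tested. No paired analysis was possible because the groups share no animal numbers. Dim probes limit what can be seen: Irak4, Tnf and Il6 had no probe above background on any array.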
